A study of Arabidopsis thaliana with 2 samples.

Results

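NCED3, PYL4, HAI1 and RDUF2 are 4 Arabidopsis thaliana genes of abscisic acid (ABA) synthesis and signalling that a genome-wide map of ATAF1 binding names at 1 peak each, 4 of 439 peaks in all. They were chosen from that map: a gene counted when the peak list gave its locus or symbol in the overlap column, in a column of neighbouring genes or in a note added by hand. ATAF1 is a NAC transcription factor. DNA was precipitated with an anti-HA antibody (10 ng per library) from rosettes of 2 genotypes in the Col-0 ecotype, plants carrying 35S:ATAF1-HA (HA-tagged ATAF1 under the 35S promoter) and wild-type plants without the tag, with 1 library per genotype. All plants were 5 weeks old and had grown on soil with 8 h of light per day at 21 °C and 65% relative humidity. The 35S promoter is active in most tissues, so the tagged protein is not limited to the cells that normally express ATAF1. How many transgenic lines went into the library is not stated. With 1 library per genotype there is no replicate and no test between genotypes. Reads are given once per peak, the list does not say from which library they come, and the depth of either library is unknown.

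ABA is the hormone with which plants close stomata and slow growth in drought. NCED enzymes cleave carotenoids in the first committed step of its synthesis, and NCED3 is the member that drought induces most in leaves. Receptors of the PYR/PYL family bind ABA and then block the clade A protein phosphatases (PP2Cs), which otherwise hold SnRK2 kinases inactive. Once free, the kinases activate bZIP factors of the ABF group. Ubiquitin ligases set how long components of the pathway last.

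The 4 peaks were of middling to high read number within the list, and 3 of them were shorter than its median length. Over all peaks, the median was 215 reads (quartiles 141.5 and 281) and the median length 40 bp. The 4 peaks carried between 199 and 330 reads and were between 15 and 61 bp long. They differed more in the false discovery rate (FDR) that the authors gave, which ran from 0.0394% for PYL4 to 2.63% for NCED3. Of the 4, PYL4 and RDUF2 had a deposited FDR under 1%, as had 226 of the 439 peaks (51.5%). The authors' p-value was 0 in all 4, as in 373 peaks (85%), so it does not set them apart from one another. What it tests is not stated in the list. Since the genes were chosen from this list, these values describe the peaks and are no test of binding.

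NCED3 (AT3G14440), the ABA synthesis gene, was named in the overlap column of a peak at chromosome 3, 4832004 to 4832025 (TAIR 9). The peak held 199 reads, 93 forward and 106 reverse, in 21 bp. Of the other peaks, 43.8% had fewer reads. Its FDR of 2.63% was exceeded in 84 peaks and undercut in 354. By reads the NCED3 peak thus lay near the middle of the list, and by the FDR as deposited in its weaker part. That FDR is in doubt: it is written to fewer decimals than any other FDR above 0, and the 4 other peaks with 199 reads all have 0.237%. Whether 2.63% is the value first computed for this peak cannot be told from the list, so its place by FDR is uncertain. Forward reads made up 46.7% (exact Clopper-Pearson 95% interval 39.6 to 53.9), an interval that includes an even split. Other measurements of NCED3 binding or expression were not analysed here.

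PYL4 (AT2G38310), an ABA receptor gene of the PYR/PYL family, was overlapped by a peak at chromosome 2, 16050310 to 16050346. This peak held 247 reads, 169 forward and 78 reverse, in 36 bp. Of the other peaks, 63.5% had fewer reads, and 63 of the 439 had a lower FDR. It therefore had the lowest FDR of the 4 without having the most reads. It also had the strongest strand imbalance of them. Forward reads made up 68.4% (exact 95% interval 62.2 to 74.2), and the deposited imbalance of 0.368 was higher in 49 peaks and lower in 387.

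HAI1 (AT5G59220) encodes a clade A PP2C that ABA induces strongly and that is also known as SAG113, a phosphatase of senescing leaves. It is the 1 gene of the 4 that no overlap column names. A note added by hand, reading AT5G59220 and AT5G59230, stands beside a peak at chromosome 5, 23899650 to 23899665, whose overlap column names no gene. In the RefSeq gene table HAI1 and AT5G59230 follow each other with 0 protein-coding genes between them. The note does not say which gene was meant, and the distance from the peak to either is not in the list. The peak held 225 reads, 96 forward and 129 reverse, in 15 bp, the shortest of the 4. Of the other peaks, 54.6% had fewer reads, and the FDR of 1.59% was exceeded in 130 peaks. Forward reads made up 42.7% (exact 95% interval 36.1 to 49.4). Notes are rare in the list. They stand beside 9 peaks, of which 4 repeat a gene that the overlap column already names and 5, this one among them, lie on peaks without a named gene.

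RDUF2 (AT5G59550), which encodes a RING-type ubiquitin ligase known from ABA and drought responses, was overlapped by the peak with the most reads of the 4. At chromosome 5, 23999561 to 23999622, the peak held 330 reads, 189 forward and 141 reverse, in 61 bp. By reads it ranked 69 in the whole list, with 84.5% of the other peaks below it. Its FDR of 0.403% was undercut in 184 peaks, and so was higher than that of the PYL4 peak in spite of the larger read number. Forward reads made up 57.3% (exact 95% interval 51.7 to 62.7).

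Strand shares that depart from an even split are common in this list, so the shares of PYL4, HAI1 and RDUF2 are not unusual in that respect. In 247 of the 439 peaks (56.3%) the exact 95% interval of the forward share left out 50%, against 3 of these 4. These intervals cover counting error only, since the list does not say how many reads are copies of 1 molecule. In the plot of forward against reverse reads, PYL4 is the member farthest from the line of equal strands.

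**Figure D1:**
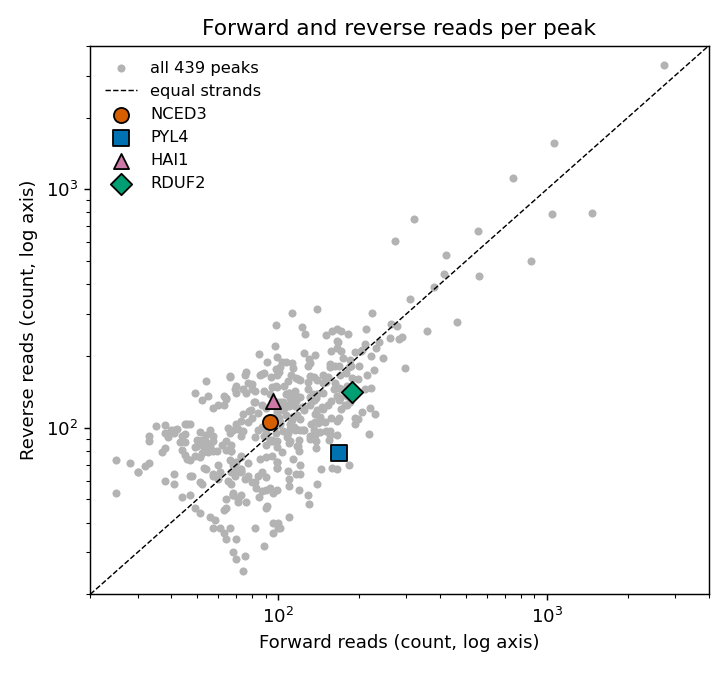
Forward reads (x axis) against reverse reads (y axis) per peak, counts on log axes, for all 439 peaks in grey and the 4 peaks that name ABA genes in colour; the dashed line marks equal strands. PYL4 lies below the line with 169 forward and 78 reverse reads, while NCED3 lies close to it with 93 and 106.

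The deposited FDR did not simply follow the number of reads in a peak. Among the 28 other peaks within 10 reads of the NCED3 peak, FDR ran from 0.128% to 4.99% with a median of 0.283%, and 23 of them had a lower FDR than NCED3. For PYL4 the order was the opposite. Of 38 other peaks within 10 reads of it, 3 had a lower FDR and 33 a higher one. Around HAI1, 33 of 42 such peaks had a lower FDR, and around RDUF2 5 of 8 did. At like read numbers, HAI1 thus stood on the weaker side by FDR and PYL4 on the stronger side. NCED3 stood on the weaker side only if its uncertain 2.63% is taken as deposited.

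FDR values came in steps that went with particular read counts. The 439 peaks carried 101 different FDR values, and 54 of these values stood on 3 or more peaks, 378 peaks in total. For each of these values, the count that the most peaks matched within 1 read was chosen. In 328 of the 378 (86.8%), the total, the forward or the reverse reads of a peak matched that count within 1 read. Because that count was picked from the same peaks, at least 1 peak per value holds it by construction. The share that would arise by chance was not computed. RDUF2 followed this pattern: its 189 forward reads match the count of 189 held by all 4 peaks with an FDR of 0.403%. So did PYL4, with 247 reads, the count held by all 3 peaks with an FDR of 0.0394%. HAI1 did not, since 12 of the 13 peaks with its FDR of 1.59% held a count of 136 and the HAI1 peak was the remaining 1. It shares this with 49 others among the 50 peaks of the 378 that lacked the count chosen for their FDR value. NCED3 could not be placed in the same way, because no other peak had its FDR of 2.63%. The nearest steps were 2.398%, which went with a count of 121, and 2.677%, which went with 120. The 6 peaks at 0.237% all held a count of 199, the NCED3 total, within 1 read. A count of 199 on 1 strand also occurred at other values, among them 0.039% and 0.087%. An FDR found on 1 peak alone was not rare, with 33 such values, but NCED3 had the 1 FDR above 0 written to 2 decimals or fewer, and its imbalance was deposited as 0.07 where its reads give 0.0653.

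**Figure D2:**
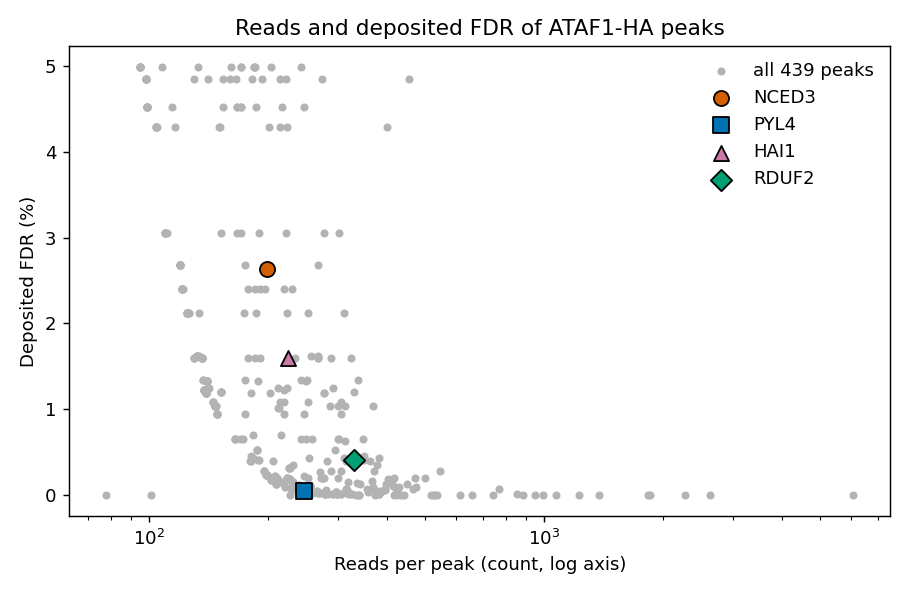
Reads per peak (x axis, count, log axis) against the deposited FDR in percent (y axis) for all 439 peaks in grey and the 4 peaks that name ABA genes in colour. Grey points form horizontal steps; HAI1 lies on the step at 1.59% and NCED3, at 2.63% and 199 reads, lies between the steps at 2.398% and 2.677%.

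The peaks of HAI1 and RDUF2 are next to each other on chromosome 5. They are 99896 bp apart with no other listed peak between them, and the RefSeq gene table places 33 protein-coding genes between HAI1 and RDUF2. Chromosome 5 held 105 peaks. On the far side of HAI1, the next peak lay 180159 bp away on ROC7, a cyclophilin gene, with 388 reads and an FDR of 0.0447%. Beyond RDUF2, the next lay 181054 bp away on NRPC1, an RNA polymerase III subunit gene, with 116 reads and an FDR of 4.29%. Within 500 kb on each side, HAI1 had 9 other peaks and RDUF2 had 7, with up to 769 reads, on the SUMO ligase gene SIZ1. In these windows 5 peaks exceeded the reads of HAI1 and 3 exceeded those of RDUF2. Neither was the highest peak of its stretch.

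The surroundings of NCED3 and PYL4 held fewer peaks. The nearest peak to NCED3 lay 26822 bp away on AT3G14470, with 167 reads and an FDR of 3.05%, and 5 protein-coding genes lie between the 2 loci. On the other side the gap to the next peak, on ECT5, a YTH-domain gene, was 648678 bp. For PYL4 the nearest peak lay 38227 bp away on AT2G38410, with 134 reads and an FDR of 2.12%. The gap on its other side, to MEE23, measured 1373432 bp. Within 500 kb on each side there were 4 other peaks around NCED3 (140 to 253 reads) and 3 around PYL4 (134 to 363 reads). Of these, 2 exceeded NCED3 in reads and 2 exceeded PYL4.

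The list's neighbour columns do not resolve these loci. Both peaks on chromosome 5 give AT5G58390 and AT5G63040 as neighbours, at 298325 and 1388480 bp from the HAI1 peak and at 398236 and 1288523 bp from the RDUF2 peak. For NCED3, the 1 neighbour given is COBL2, at 6896087 bp. PYL4 has AT2G35040 at 1282022 bp and AT2G41360 at 1184027 bp. In 316 of the 439 peaks a listed neighbour lay more than 20000 bp away, so an ABA gene that is absent from these columns may still lie near a peak.

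**Figure D3:**
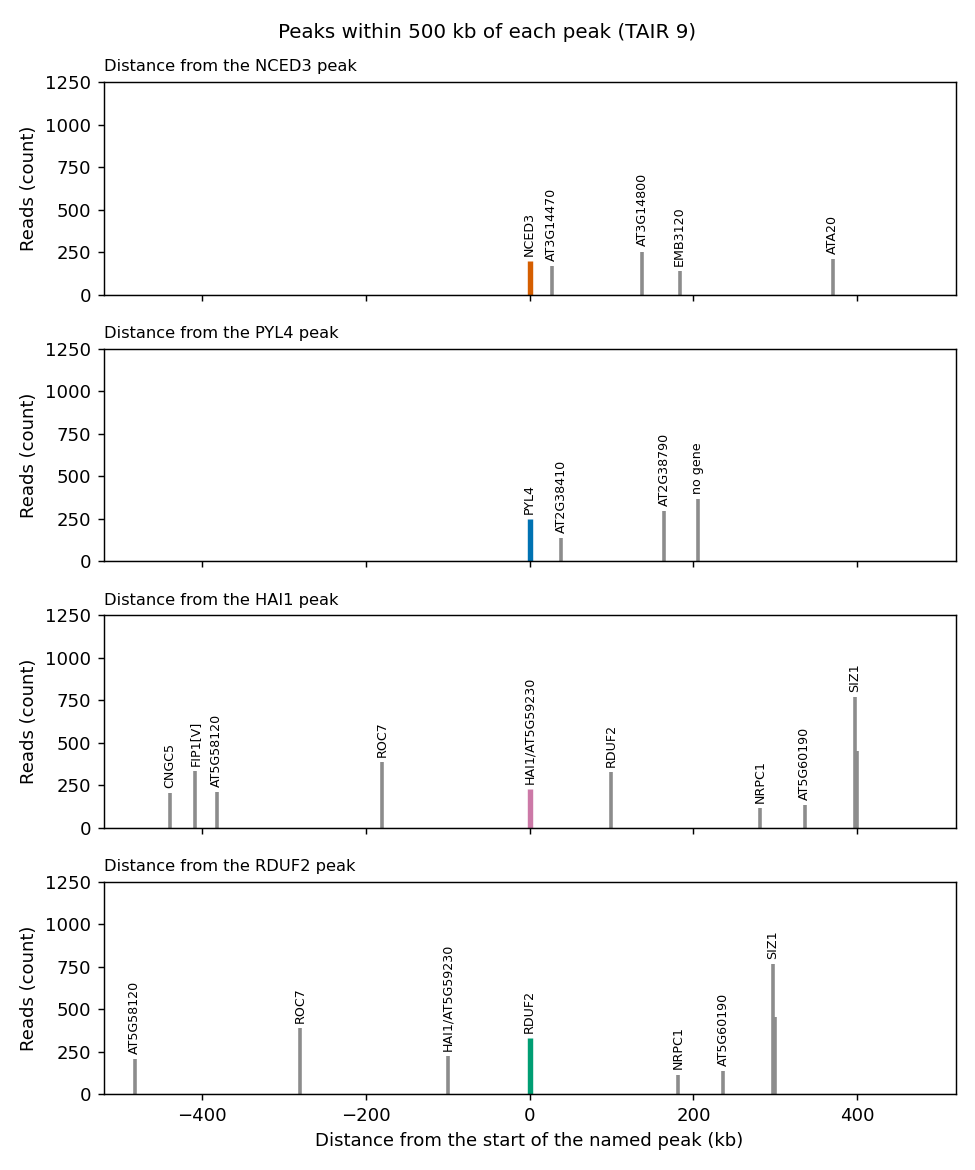
Peaks within 500 kb of each of the 4 peaks, with distance from the start of that peak in kb (x axis) and reads per peak (y axis, count); the coloured line in each panel is the peak of the named gene and grey lines are other peaks, labelled with the gene the list gives. HAI1 and RDUF2 appear in each other's panel at about 100 kb, and the tallest line is SIZ1 with 769 reads; a second SIZ1 peak stands beside it without a label.

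Whether peaks named further genes of the ABA pathway was read from a list of 75 genes, of which 3 were named in the overlap column, NCED3, PYL4 and RDUF2. Over all 27444 nuclear protein-coding genes, 288 were named there (1.05%). These genes had been picked because the peak list names them, so the 71 other genes are what that choice left over. Of these 71, 0 were named in an overlap column or a note. That count is largely fixed by the choice and is no result. At 1.05%, fewer than 1 of 71 genes would be named in any case. With neighbours within 1000 or 3000 bp counted too, 1.17% and 1.33% of all genes were named, and with notes 1.07%. Restricting the peaks to an FDR under 1% or to p-values of 0.05 or less left 0.492% and 1.02%. The expected count is therefore too small to show fewer or more peaks than over all genes.

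By role, NCED3 was 1 of 10 synthesis genes and the 1 named of 5 NCED genes. PYL4 was 1 of 14 PYR/PYL receptor genes. HAI1, by its note, was 1 of 9 clade A phosphatase genes. RDUF2 was 1 of 13 ubiquitin ligase genes, and its relative RDUF1 (AT3G46620) was not named. No gene was named among 8 of ABA breakdown and conjugation, 4 transporters, 10 SnRK2 kinases and 7 transcription factors of the ABF and ABI groups. A single further gene appeared in a neighbour column. NCED9 (AT1G78390), the carotenoid dioxygenase gene known from seeds, was 6452 bp from a peak at chromosome 1, 29499327 to 29499347, that overlapped AT1G78400 and held 121 reads, 33 forward and 88 reverse, with an FDR of 2.398%. The synthesis, receptor and ligase roles had 1 gene each under a peak and the phosphatases 1 by note. That each of these roles has a named gene follows from the choice of the 4 genes and is no result. The other genes of these roles were not named in an overlap column or a note. Overlap with promoters could not be scored from the list, and binding near the unnamed genes may have been missed.

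**Figure D4:**
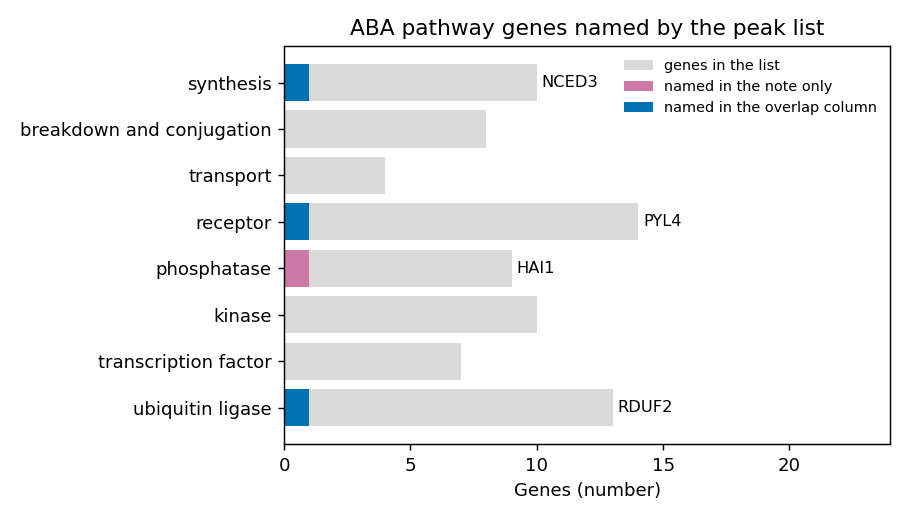
Number of genes (x axis) in each role of the ABA pathway list (y axis); grey bars give the genes in the list, blue those named in the overlap column and pink the 1 named only in a note. Synthesis, receptor, phosphatase and ubiquitin ligase genes each have 1 named gene, written beside the bar, and the other 4 roles have 0. The 4 named genes are those chosen from the peak list.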

How the data were processed

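The authors deposited 1 peak list for both libraries. Its genome build is TAIR 9, per the submitters' processing notes. For aligner, peak caller and use of the wild-type library: not given in the sources used here. The columns hold, per the file headers, a count of reads per peak, an FDR in percent and a p-value between 0 and 1. The deposited strand imbalance is a fraction, |forward - reverse| divided by the total. Forward and reverse reads summed to the total in all 439 peaks. Length, as deposited, is end minus start, another number in bp. Read counts are not corrected for depth or length.

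Annotation text over several lines was joined (177 continuation lines), and gene names, by locus, symbol or synonym and restricted to the chromosome of the peak, were matched to RefSeq's genes for TAIR10.1. That table gave names, biotypes and gene order only, none of its coordinates being set against peaks. Where a symbol in the overlap column fitted several loci, the locus number nearest that interpolated from flanking peaks with unambiguous names was taken. In the ABA list, 75 of 75 loci and 74 of 75 symbols matched. The genes and lists were chosen with earlier results of these data known. Named are the 4 genes, genes at their peaks and at neighbouring peaks, and list genes in any column. Shares of forward reads have exact Clopper-Pearson 95% intervals. No test between groups was run, since each genotype had 1 library. Parsing was checked on 400 simulated peaks named by locus, of which 400 were recovered. Symbols, synonyms, neighbour columns and the choice between several loci were not part of that check. Planned promoter motif searches and protein comparisons were not run, since no sequences were used here. Scripts ran under Python 3.11.15 with SciPy 1.17.1, NumPy 2.4.6 and, for figures, Matplotlib 3.10.9.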

Additional observations from a re-analysis of the deposited data

How the results depend on the processing

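The 3 ABA genes of the overlap column stayed at 3 with neighbours within 1000 or 3000 bp and with p-values of 0.05 or less. The count was 4 with notes and 2 with FDR under 1%, where NCED3 drops out by its deposited 2.63%. That value is uncertain: the 4 other peaks with its 199 reads have 0.237%, although equal reads do not fix the FDR in this list. Each peak's place by reads depended on what it was set against. The share of other peaks with fewer reads was 43.8% for NCED3, 63.5% for PYL4, 54.6% for HAI1 and 84.5% for RDUF2. By reads divided by the deposited length plus 1 bp, it was 76.3% for NCED3, 64.2% for PYL4, 85.8% for HAI1 and 51.1% for RDUF2. This reverses the order of RDUF2 and HAI1, the longest and the shortest of the 4 peaks. Deposited lengths go down to 0 bp in peaks that still carry reads, so this quotient is not a read density. Against peaks with FDR under 1% alone the share was 14.2% for NCED3, 41.3% for PYL4, 26.1% for HAI1 and 72% for RDUF2. The cause of these shifts was not tested. Against peaks on protein-coding genes the share was 46.2% for NCED3, 66.6% for PYL4, 57.4% for HAI1 and 89% for RDUF2, higher than the first value for all 4. Motif windows in promoters were not run, since no promoter sequence was used here. No paired analysis was possible because the genotypes have a single library each. Depth per library is unknown, so no limit on unlisted binding can be given.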

Other observations

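Besides the peak noted for HAI1, 8 peaks carry a note. On peaks without a named gene, notes give TUB8 (AT5G23860), a beta-tubulin gene, with 151 reads and an FDR of 4.29%, AT1G56690 with 367 reads and 0.157%, AT5G19120 with 199 reads and 0.237%, and AT2G12360 with AT2G12370 with 132 reads and 1.62%. The notes for BT1, COL2, PTR2 and AT5G63580 repeat a gene that the overlap column of the peak names, with 278, 274, 99 and 167 reads.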
